A study of Mus musculus with 9 samples.

Results

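The response of mouse ear skin to an irritant, benzalkonium chloride (BAC), was measured 6 h after it was applied, by comparing the 3 arrays of BAC-treated ears with the 3 arrays of vehicle-treated ears. These 6 arrays were chosen by their sample titles, out of 9 in the series. All animals were C57BL/6 mice, with no genetic change named in the labels and their age not analysed here. BAC was painted on the right ear and the vehicle, acetone with olive oil, on the left ear, which means that side and treatment cannot be told apart. The other 3 arrays came from right ears painted with DNFB (2,4-dinitrofluorobenzene), which the labels call an allergen, also 6 h before sampling. They serve here to test where the BAC arrays differ from those of another reactive compound; both comparisons share the BAC arrays. No dose is stated for either compound. Replicates carry numbers, but no label says that they are separate animals, so a p-value covers only how far these arrays vary, which could be technical variation.

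BAC is a quaternary ammonium detergent and preservative that damages cell membranes, and it is a standard model of irritant contact dermatitis, in which skin is inflamed without the T cell memory that an allergen needs. In skin, keratinocytes, resident mast cells, macrophages and endothelium detect the damage first. Cytokines of the IL-1 and IL-6 families, the transcription factors NF-kB and AP-1, and chemokines then bring neutrophils and monocytes into the tissue. The outer epidermis is meanwhile held together by cornified envelopes and by corneodesmosomes, and kallikrein proteases dismantle the corneodesmosomes as the surface cells are shed.

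Values are MAS5 signals, an intensity per probe set on a linear scale, and each gene is represented by its brightest probe set. Every array had a trimmed mean of 250.001, and median signals ranged from 71.2 to 84.2 over the 6 arrays. The epidermal markers Krt5, Krt14, Krt1 and Krt10 were far above these medians in each of them. The 3' to 5' signal ratios of the control transcripts, a measure of RNA integrity, did not overlap between the groups and were higher after BAC. For Gapdh they were 0.917 to 0.932 after BAC and 0.856 to 0.880 after vehicle, and for actin 1.18 to 1.22 and 1.05 to 1.10. The part of this difference in the results below was not tested. DNFB replicate 2 stood apart, with a Gapdh ratio of 1.36 beside 0.841 to 0.943 in the other 8 arrays and the highest actin ratio (1.28), so comparisons with DNFB are also given without it. Log2 changes are BAC minus vehicle on the log2(signal + 16) scale, given with the standard error (SE) from limma, which understates the change of dim genes. "Rose" and "fell" are used of genes with a limma adjusted p below 0.05 over all 14122 tested genes, and means are given ± SD over 3 arrays.

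By this rule 2009 genes changed, or 14.2% of those tested, of which 930 (6.59%) rose and 1079 (7.64%) fell. At least 4-fold changes were found in 83 genes that rose (0.588%) and 6 that fell (0.0425%), and 22 genes (0.156%) rose at least 8-fold. The median log2 change of all tested genes was -0.03, and that of each gene list below is read beside it. With each array centred on its median signal, which moved the median of all genes to -0.12, 606 genes rose and 1178 fell, or 34.0% higher in place of 46.3%, so the balance of rises and falls depended on the scaling. Without vehicle replicate 1 the counts were 653 and 572, and the number that fell was 710 without BAC replicate 2 and 676 without BAC replicate 3.

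**Figure D1:**
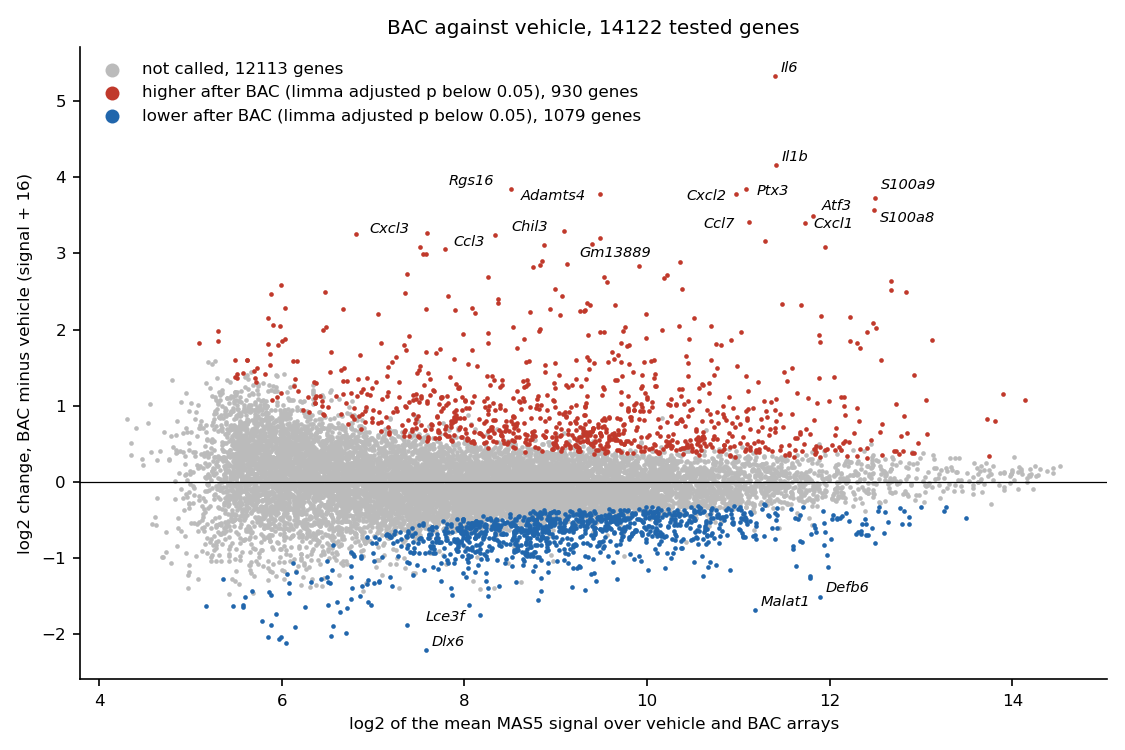
Each point is 1 of the 14122 tested genes, with the log2 of its mean MAS5 signal over the vehicle and BAC arrays on the horizontal axis and the log2 change, BAC minus vehicle, on the vertical axis; genes that rose are red and genes that fell are blue. The named rises lie at log2 changes of 3.20 to 5.34, while Dlx6 is named among the falls, at -2.22.

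Among the cytokines, Il6 led, followed by Il1b and other members of the IL-6 family. Il6, the cytokine interleukin-6, had signals of 157, 133 and 70.5 in vehicle replicates 1 to 3 and of 4834, 5498 and 5488 after BAC. Every BAC array thus lay far above every vehicle array, with a fold change of 40.4 (log2 5.34 ± 0.21, limma adjusted p = 5.53e-10). Il1b, interleukin-1 beta, was at 264, 368 and 207 after vehicle and at 4630, 5332 and 5532 after BAC, a fold change of 17.9. Of 12 tested genes of the IL-6 family and its signalling, 7 rose and 1 fell, with a median log2 change of 0.86. Osm, oncostatin M, which is made by leukocytes and acts on keratinocytes, rose from 98.0 ± 21.2 to 812 ± 178 (2.85 ± 0.19), and its receptor subunit Osmr rose by 1.01 ± 0.14. Lif, leukaemia inhibitory factor, rose by 1.44 ± 0.29, and Stat3, the transcription factor downstream of these receptors, by 0.72 ± 0.12. Lifr, the LIF receptor, fell by 0.62 ± 0.17, a call that ended without vehicle replicate 1 or 2 or BAC replicate 2.

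The IL-1 family split by member rather than moving together: 4 of 15 tested genes rose and 4 fell, with a median of 0.00. Besides Il1b, the receptor Il1r1 rose (0.74 ± 0.12), while Il1a, a cytokine that keratinocytes store, had signals of 137, 139 and 127 after vehicle and 130, 125 and 122 after BAC (-0.08 ± 0.40, limma adjusted p = 0.922). The genes that fell are expressed mainly in epithelium. Il18, a stored inflammasome cytokine, fell from 1175 ± 42.7 to 807 ± 67.4 (-0.54 ± 0.11). Il1f8, now called Il36b and an agonist of the IL-36 receptor, fell from 615 ± 48.8 to 342 ± 43.3 (-0.82 ± 0.14), and Il1f5, the antagonist of that receptor, fell by 0.65 ± 0.12. Both an agonist and its antagonist were thus lower in the same arrays.

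Of 8 tested neutrophil chemokines and colony-stimulating factors, 6 rose and none fell, with a median log2 change of 2.48, beside 6.59% of all tested genes that rose. Cxcl3, Cxcl5, Csf3 and Ppbp lay under the 40th percentile in 3 of 3 vehicle arrays, so they met the filter through arrays in which they were higher, and the other 2 members on the array lay under the filter; the count and median are a description only. The CXCR2 ligands Cxcl1, Cxcl2 and Cxcl3, which attract neutrophils, lie with Il6 among the largest rises, and the means of Cxcl1 and Cxcl2 rose 10.5-fold and 13.8-fold on the scale of the test. Cxcl2 was at 476, 319 and 103 after vehicle, a wide spread, and at 3235, 4271 and 3669 after BAC. Cxcl3 was dim after vehicle, below the 40th percentile of the array in 3 of 3 arrays (19.9, 14.5 and 35.6), and at 267, 468 and 354 after BAC, so the size of its rise depends on the added 16.

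Since these genes rose together and kB sites are known in promoters of this family, the 250 bases before the start of each gene were searched on both strands for the kB letters, GGG and TTCC with any 3 bases between them, and for the AP-1 letters TGANTCA. Among the 15 largest rises, 12 genes had a window in the RefSeq promoter table of build GRCm38.p6. The kB letters were found in 4 of these, Il6, Cxcl1, Cxcl2 and Cxcl3, and the AP-1 letters in 1, Il6. The Cxcl genes lie close together on chromosome 5 and their windows share the letters GGGAATTTCCC, so they are not independent cases. The last 150 bases before the start are shown 5′ to 3′ on the gene's strand, with matches to the kB letters in capitals. They lie at chr5:30012964-30013113 for Il6, chr5:90891095-90891244 for Cxcl1, chr5:90903749-90903898 for Cxcl2 and chr5:90785951-90786100 for Cxcl3, all on the plus strand.
Il6: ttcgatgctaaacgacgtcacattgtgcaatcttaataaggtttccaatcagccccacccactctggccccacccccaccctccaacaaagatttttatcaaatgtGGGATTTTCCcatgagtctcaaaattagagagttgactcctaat
Cxcl1: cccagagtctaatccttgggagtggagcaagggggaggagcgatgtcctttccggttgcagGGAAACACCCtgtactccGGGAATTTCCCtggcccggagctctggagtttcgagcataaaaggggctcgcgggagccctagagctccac
Cxcl2: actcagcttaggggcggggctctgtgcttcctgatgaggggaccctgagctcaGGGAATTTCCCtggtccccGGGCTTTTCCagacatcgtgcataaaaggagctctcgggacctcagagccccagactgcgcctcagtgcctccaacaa
Cxcl3: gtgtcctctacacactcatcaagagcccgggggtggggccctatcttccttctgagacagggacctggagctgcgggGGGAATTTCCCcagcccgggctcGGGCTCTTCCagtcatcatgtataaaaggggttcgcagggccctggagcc
Each of the Cxcl windows held 3 matches, of which the pair on opposite strands of 1 palindromic stretch overlap, and the Il6 window held 1, starting 44 bases before the gene. The kB letters were in the window of 66 of 710 genes that rose (9.3%), 52 of 858 that fell (6.06%) and 664 of 11263 tested genes (5.9%). The AP-1 letters were in 70 of those that rose (9.86%), 59 of those that fell (6.88%) and 712 of those tested (6.32%), and over all 27025 genes of the table the shares were 5.31% for kB and 7.82% for AP-1. A match describes these letters and is not a measured binding site.

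Of 16 tested CC chemokines, 10 rose and none fell, with a median of 1.18. Ccl7 and Ccl2, ligands of the monocyte receptor CCR2, rose by 3.42 ± 0.27 and 3.17 ± 0.22, Ccl3 by 3.24 ± 0.27 and the eosinophil attractant Ccl11 by 2.63 ± 0.21. Ccl17, a ligand of CCR4, rose from 283 ± 107 to 764 ± 244 (1.40 ± 0.24). Ccl20, a ligand of CCR6 made by keratinocytes, spread widely, with 836, 1377 and 363 after vehicle and 1485, 3738 and 2172 after BAC. Its rise of 1.59 ± 0.43 (limma adjusted p = 0.0228) did not pass without vehicle replicate 3 (1.08), BAC replicate 2 (1.24) or BAC replicate 3 (1.63). Set directly against the DNFB arrays, where 6.8% of tested genes were called by limma, 3.66% higher and 3.14% lower after BAC, 9 of the 16 CC chemokines were higher after BAC and none lower, also without DNFB replicate 2. The differences were 3.65 ± 0.43 for Ccl20 and 2.19 ± 0.21 for Ccl11 (3.30 and 2.33 without DNFB replicate 2). Over all genes that comparison rested on few arrays: its 961 calls were 608 without DNFB replicate 2, 571 without DNFB replicate 3 and 513 without BAC replicate 2, and its 444 lower calls were 229, 178 and 210. Neutrophil markers moved with it, 7 of 17 higher after BAC (4 without DNFB replicate 2) and none lower, with a median of 0.89, and so did 3 of 13 keratinocyte markers (2 without DNFB replicate 2), with none lower and a median of 0.20. Their part in the differences from DNFB given here and below was not tested.

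**Figure D2:**
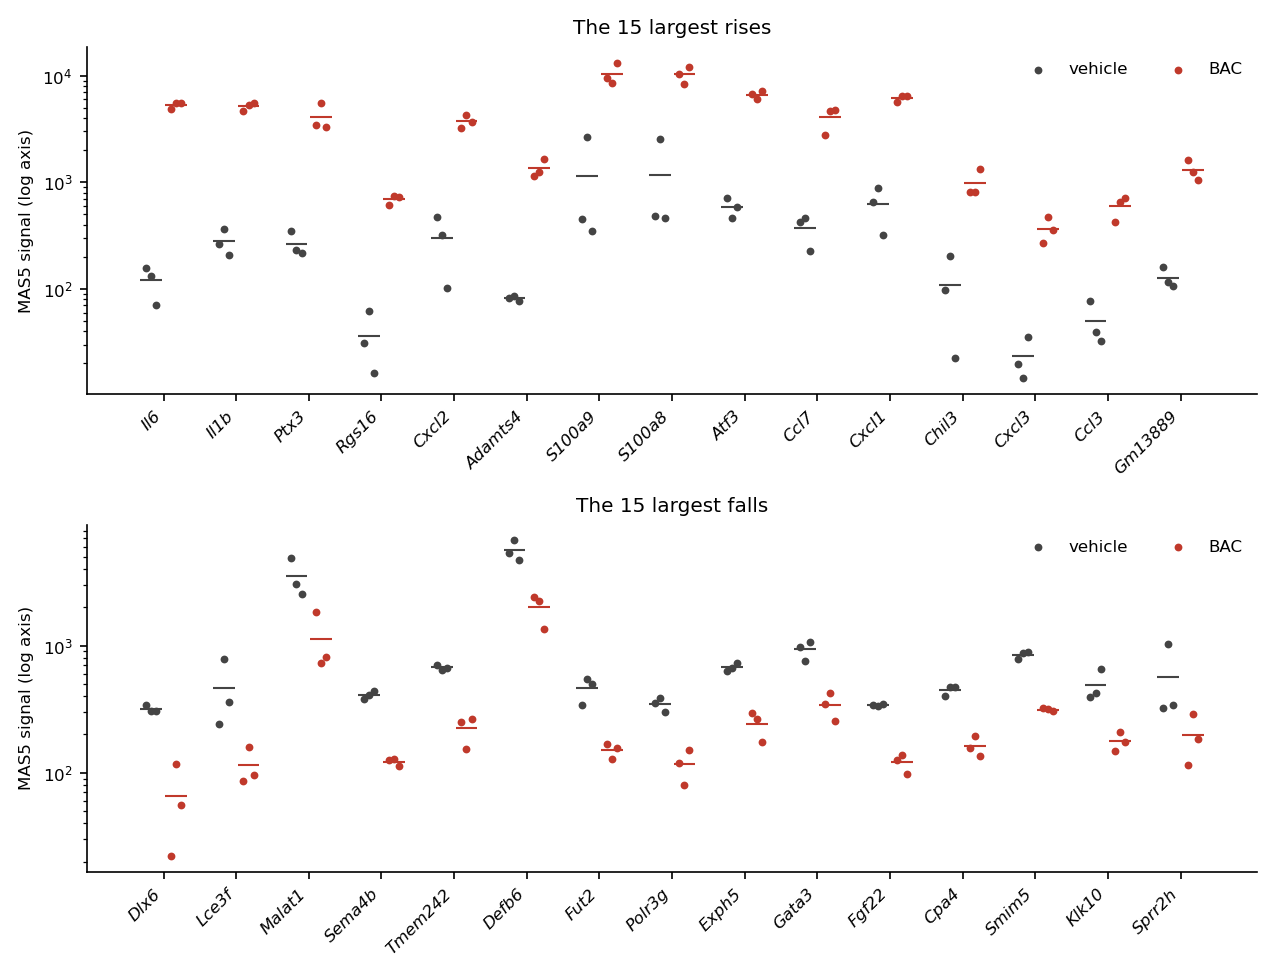
MAS5 signals on a log axis in the 3 vehicle arrays (dark) and the 3 BAC arrays (red) for the 15 largest rises (top) and the 15 largest falls (bottom), with a bar at each group mean. The groups do not overlap in any of these genes, which the rule that chose them required; among vehicle arrays, replicate 2 stands apart in S100a8 and S100a9, and in Sprr2h and Lce3f.

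Genes of the NF-kB pathway rose on both its activating and its inhibiting side. Of 21 tested subunits, inhibitors and feedback genes, 14 rose and none fell, with a median of 0.80. Rel, the subunit c-Rel, had signals of 88.9, 129 and 76.5 after vehicle and 425, 620 and 637 after BAC (2.34 ± 0.21). Tnfaip3, the deubiquitinase A20 that ends NF-kB signalling, was at 1245, 882 and 720 and then at 4697, 5095 and 4483, a 5.07-fold rise. Bcl3, a nuclear cofactor of NF-kB, rose by 2.24 ± 0.28, and Nfkbia, the inhibitor IkB-alpha, by 0.82 ± 0.10. Birc3, a ubiquitin ligase of TNF receptor complexes, rose from 450 ± 44.8 to 1852 ± 212. Against DNFB, 10 of the 21 were higher after BAC and none lower (8 without DNFB replicate 2), by 3.39 ± 0.16 for Tnfaip3 and 1.45 ± 0.10 for Nfkbia (without it 3.50 and 1.43).

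Receptors that sense damage and microbes act ahead of these factors. Of 25 tested pattern recognition and inflammasome genes, 11 rose and 3 fell, with a median of 0.43. Clec7a, the beta-glucan receptor Dectin-1, rose from 304 ± 103 to 2336 ± 684 (2.88 ± 0.22), Trem1, an amplifying receptor of neutrophils and monocytes, by 2.40 ± 0.16, and Fpr2, a formyl peptide receptor, by 2.21 ± 0.23. The 3 that fell were Gsdma (-0.99 ± 0.16), a pore-forming gasdermin of epithelium, Nlrp10 (-0.74 ± 0.18) and Pycard (-0.70 ± 0.11), the inflammasome adaptor ASC. Nlrp10 did not pass without vehicle replicate 3 or BAC replicate 1. Of 16 tested genes of the TNF superfamily 7 rose and 1 fell (4 rose without BAC replicate 3). Tnf itself was low, at 80.3, 73.4 and 20.8 after vehicle and 108, 56.6 and 178 after BAC, groups that overlapped (0.82 ± 0.48, limma adjusted p = 0.286). Of 28 tested interferon-stimulated genes and CXCR3 ligands, 9 rose and none fell, led by Cxcl10 (3.06 ± 0.36) and the transcription factor Irf1 (1.41 ± 0.12). That count was 5 without vehicle replicate 1, 4 without BAC replicate 2 and 5 with centred arrays. Genes of the TNF and interferon lists that were dim after vehicle could also be tested through other arrays, so these counts are a description too.

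Immediate early genes, which are transcribed without new protein synthesis, were high at 6 h. Of 14 tested AP-1 subunits, 10 rose and none fell, with a median of 1.10, and of 25 tested EGR, IER, NR4A and related genes 20 rose and none fell, with a median of 1.24. Atf3, a stress-induced factor of the ATF family, was at 710, 459 and 582 after vehicle and 6733, 6005 and 7215 after BAC, an 11.3-fold rise. Jun rose by 2.52 ± 0.13, Fosl1 by 1.87 ± 0.14 and Fos by 1.40 ± 0.16. Nr4a3, an orphan nuclear receptor, rose from 304 ± 54.8 to 2026 ± 202 (2.68 ± 0.13), Ccn1, a matricellular protein, by 2.49 ± 0.15, Myc by 1.96 ± 0.13 and Egr1 by 1.86 ± 0.12. Arc, best known from neurons, rose from 202 ± 18.7 to 1026 ± 203 (2.24 ± 0.16) and was 2.39 ± 0.16 above the DNFB arrays, in contrast to Egr1, whose difference from DNFB was -0.06 ± 0.12 (limma adjusted p = 0.83). Without DNFB replicate 2 these were 2.34 ± 0.18 for Arc and 0.01 ± 0.13 for Egr1.

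The brakes on these pathways rose too. Of 16 tested DUSP and Sprouty genes, which switch off MAP kinases, 9 rose and 1 fell, with a median of 0.76. Dusp5, a nuclear phosphatase of ERK, was at 277, 415 and 274 after vehicle and at 1020, 961 and 1006 after BAC (1.61 ± 0.15), and Dusp8, a phosphatase of JNK and p38, rose from 246 ± 9.48 to 696 ± 47.1 (1.44 ± 0.15). Dusp14 was the gene that fell (-0.82 ± 0.18). Zfp36, tristetraprolin, which binds cytokine mRNAs and speeds their decay, was at 2173, 1455 and 1826 and then at 11871, 9967 and 11943 (2.63 ± 0.15), and 8 of 13 tested mRNA decay genes rose, with none lower (5 with centred arrays, 4 when probe sets of a gene were averaged). Of 18 tested SOCS, JAK and STAT genes, 9 rose and none fell, including Socs3 (3.08 ± 0.21) and Cish (1.60 ± 0.17), inhibitors of cytokine receptors. Of 16 tested regulators of G protein signalling, 4 rose, Rgs16 (3.85 ± 0.27), Rgs1 (2.26 ± 0.16) and Rgs2 (1.13 ± 0.14) among them, and 2 fell, of which at most 1 passed without any 1 array.

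**Figure D3:**
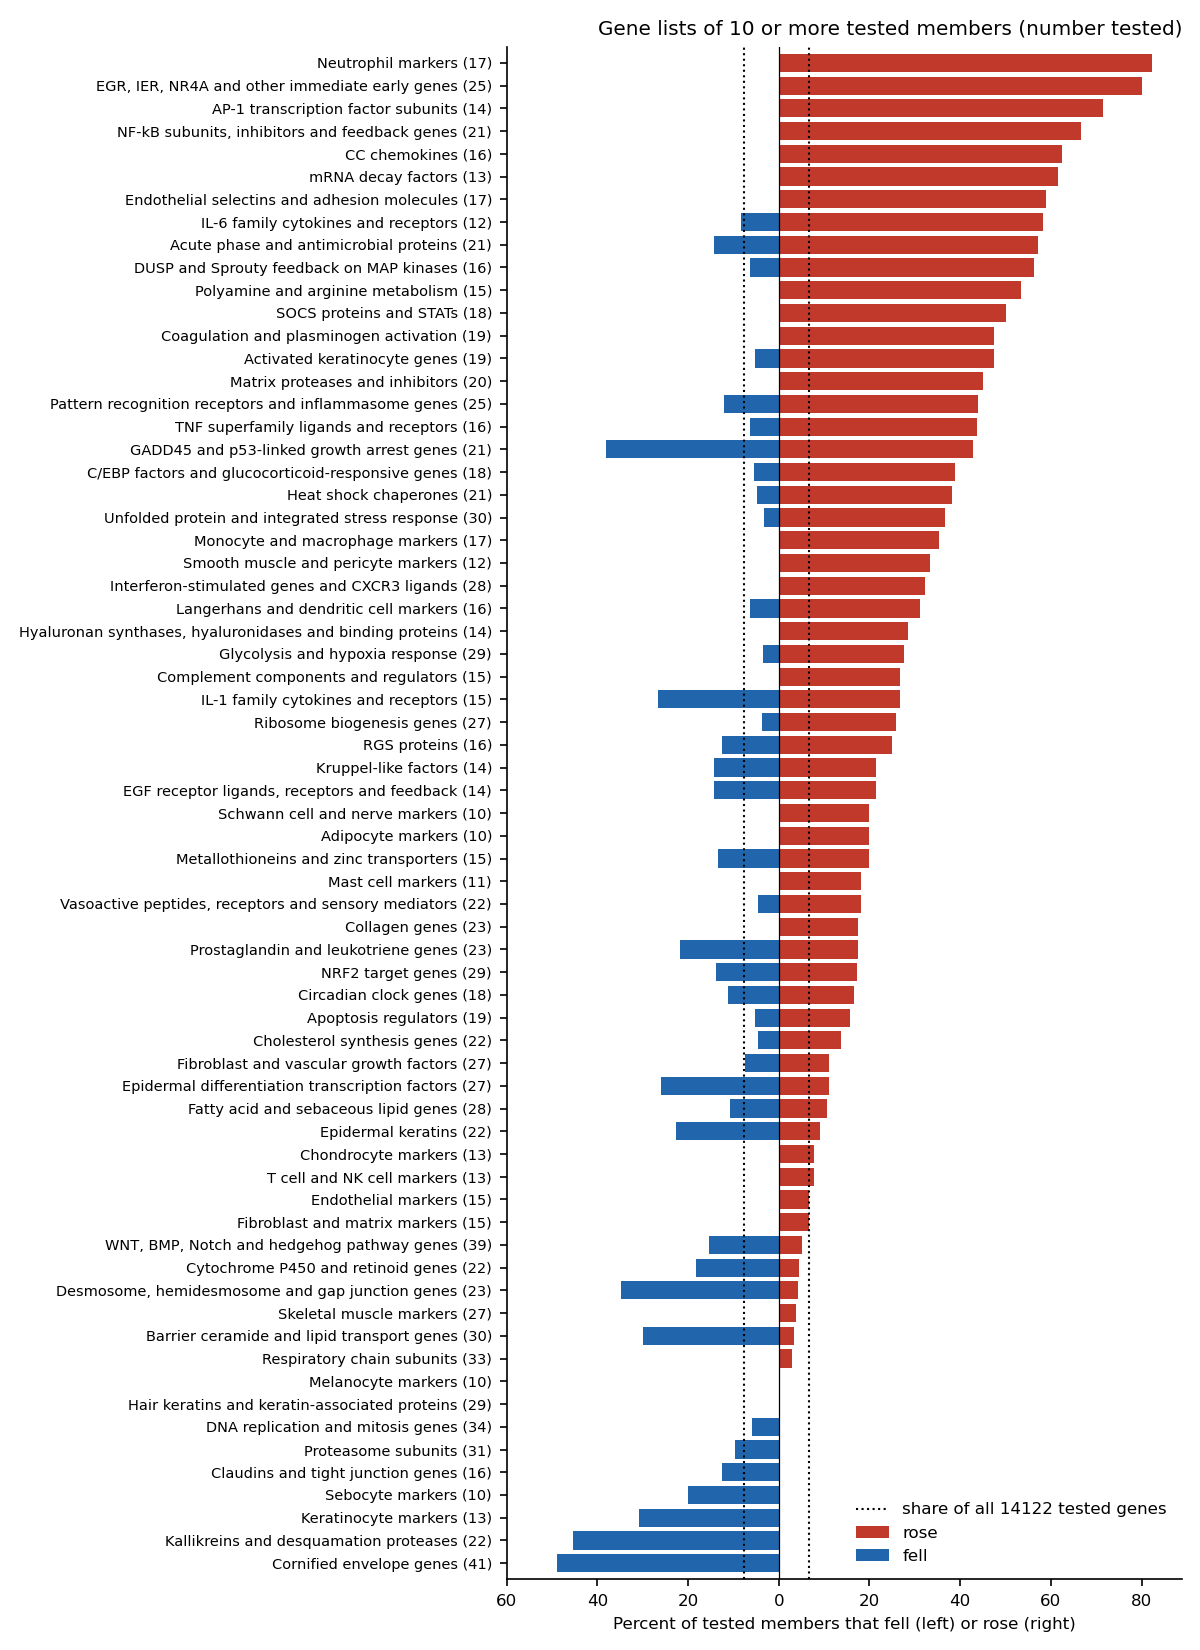
For each gene list of 10 or more tested members (number in brackets), bars give the percent of members that rose (red, to the right) and that fell (blue, to the left), and dotted lines the shares of all 14122 tested genes, 6.59% and 7.64%. Neutrophil markers, immediate early genes and AP-1 subunits lie farthest to the right, and cornified envelope genes and kallikreins farthest to the left.

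The 3 GADD45 genes rose, while p53-linked growth arrest genes went both ways. Gadd45g, a stress sensor of MAP kinase pathways, had signals of 302, 363 and 255 after vehicle and 2121, 1978 and 2144 after BAC, a 6.56-fold rise. Gadd45a rose by 2.53 ± 0.30 and Gadd45b by 1.81 ± 0.12. Sesn1, a p53 target that restrains mTORC1, instead fell from 1158 ± 135 to 470 ± 97.2 (-1.29 ± 0.17), as did Trp53inp1 (-1.14 ± 0.22), Zmat3 (-0.95 ± 0.16) and the cell cycle inhibitor Cdkn1b (-0.94 ± 0.22). Cdkn1a, the p53 target p21, rose by 0.62 ± 0.12. In all, 9 of 21 tested genes of this list rose and 8 fell, with a median of -0.14. The number that fell was 4 without vehicle replicate 1, where Cdkn1b no longer passed, 5 without BAC replicate 2 and 4 without the intensity trend.

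Ligands of the EGF receptor differed among themselves. Epgn, epigen, was at 409, 772 and 423 after vehicle and at 1859, 3212 and 2117 after BAC (2.15 ± 0.24), and 3.11 ± 0.24 above the DNFB arrays. Hbegf, which drives keratinocyte migration, rose from 1050 ± 260 to 2994 ± 238 (1.53 ± 0.16). Ereg, epiregulin, was at 2562, 2895 and 2581 and then at 2193, 3319 and 2632, overlapping groups (0.00 ± 0.15, limma adjusted p = 0.999), but it lay 1.93 ± 0.15 above the DNFB arrays. Without DNFB replicate 2 these differences were 2.96 ± 0.26 for Epgn and 1.80 ± 0.15 for Ereg. Errfi1 (MIG6), a negative regulator of the receptor, rose by 2.09 ± 0.11, and Lrig3, of the LRIG family, fell by 0.98 ± 0.14. In all, 3 of 14 tested genes rose and 2 fell, the second being the receptor Erbb3 (-0.52 ± 0.12), which did not pass without vehicle replicate 3 or BAC replicate 2. Without BAC replicate 1, 4 genes fell.

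Selectins and other adhesion molecules hold leukocytes on the vessel wall. Of 17 tested selectins and adhesion molecules, 10 rose and none fell, with a median of 0.69. Sele, E-selectin, which slows leukocytes on endothelium, was at 128, 177 and 78.5 after vehicle and at 1025, 1073 and 872 after BAC, a 7.26-fold rise, while its mean in the DNFB arrays was 116. Selp, P-selectin, rose by 2.23 ± 0.20 and Icam1, the ligand of leukocyte integrins, by 2.05 ± 0.15. Of 15 general endothelial markers 1 rose, Cdh5, VE-cadherin (0.77 ± 0.18), and none fell. Of 19 tested coagulation and plasminogen genes, 9 rose and none fell (5 without vehicle replicate 1, 5 with centred arrays), among them Fgl2, a membrane prothrombinase (798 ± 183 to 2780 ± 250), Thbs1, thrombospondin (1.60 ± 0.16), and Plaur, the urokinase receptor (1.48 ± 0.22).

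In the matrix, hyaluronan synthases and aggrecan-cleaving proteases rose. Has1, a hyaluronan synthase, had signals of 232, 275 and 260 after vehicle and 1353, 1252 and 1443 after BAC, a 5.03-fold rise, and Has2 rose from 87.5 ± 3.83 to 275 ± 63.7 (1.47 ± 0.21). Tnfaip6, TSG-6, which links proteins to hyaluronan, rose by 2.83 ± 0.17. Cd44, the hyaluronan receptor, rose by 0.53 ± 0.13 but did not pass without vehicle replicate 1 or BAC replicate 2. These were the 4 of 14 tested hyaluronan genes that rose, with none lower. Of 20 tested matrix proteases and inhibitors, 9 rose and none fell: Adamts4 was at 82.9, 85.2 and 77.5 and then at 1136, 1258 and 1651, a 13.8-fold rise, Adamts9 rose from 172 ± 21.5 to 734 ± 61.4, Adamts1 by 1.86 ± 0.14, and Mmp8, a collagenase of neutrophils, by 2.29 ± 0.18. Of 23 tested collagen genes, 4 rose and none fell, including Col4a1 of the basement membrane (0.58 ± 0.11), and that count was 1 with centred arrays and 2 without vehicle replicate 1 or BAC replicate 2.

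Of 23 tested prostaglandin and leukotriene genes, 4 rose and 5 fell, with 1 to 3 that fell when any 1 array was left out. Ptgs2, cyclooxygenase-2, differed between its probe sets. In the brightest it was at 538, 367 and 256 after vehicle and at 486, 402 and 418 after BAC, overlapping groups (0.22 ± 0.22, limma adjusted p = 0.568). In its other probe set it was higher after BAC by 1.22 (limma adjusted p over probe sets = 0.00378), and when the probe sets were averaged the change was 0.72, which passed. Ptger4, the prostaglandin receptor EP4, rose from 307 ± 34.0 to 990 ± 163 (1.63 ± 0.14), Alox5ap, which serves leukotriene synthesis, rose by 0.95 ± 0.13, and Hpgd, which breaks prostaglandins down, fell by 0.73 ± 0.17. Hdc, which makes histamine and marks mast cells and neutrophils, rose from 193 ± 79.0 to 1281 ± 258 (2.69 ± 0.25). Nts, the vasoactive peptide neurotensin, rose from 93.8 ± 18.6 to 765 ± 159 (2.83 ± 0.19).

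Stress pathways differed from the DNFB arrays. The NRF2 pathway, in which the factor NRF2 turns on genes for glutathione and for the removal of electrophiles, showed no common direction after BAC: 5 of 29 tested targets rose and 4 fell, with a median of -0.06. Hmox1, haem oxygenase-1, was at 1119, 1673 and 1260 after vehicle and at 1332, 1374 and 1165 after BAC (-0.05 ± 0.16, limma adjusted p = 0.881). The catalytic subunit of glutathione synthesis, Gclc, fell from 538 ± 73.5 to 329 ± 17.4 (-0.68 ± 0.13), and Cbr3, a carbonyl reductase, fell by 0.78 ± 0.13, whereas Osgin1 (1.73 ± 0.21) and Ugdh (1.09 ± 0.14), a sugar dehydrogenase that also serves hyaluronan synthesis, rose. The numbers that rose and fell were both 2 without vehicle replicate 1, 3 and 2 without vehicle replicate 3, and both 2 without the intensity trend. Srxn1, sulfiredoxin, had risen by 0.81 ± 0.21 over vehicle, which did not pass without vehicle replicate 1 or 3 or BAC replicate 3. Against DNFB, 17 of the 29 were lower after BAC and none higher (15 without DNFB replicate 2), with a median difference of -0.68 beside -0.03 over all tested genes. Those differences were -2.76 ± 0.16 for Hmox1, -2.63 ± 0.21 for Srxn1 and -1.84 ± 0.13 for Gclc, and -2.83, -2.73 and -1.93 without DNFB replicate 2, where all 3 passed.

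Chaperones of the heat shock family refold damaged proteins. Of 21 tested heat shock genes, 8 rose after BAC and 1 fell, with a median of 0.24, and 11 were lower after BAC than after DNFB (9 without DNFB replicate 2), with none higher. Hspa1a, an inducible HSP70 that has a near-identical copy in Hspa1b, was at 973, 1126 and 1029 after vehicle and at 1401, 1350 and 1810 after BAC (0.53 ± 0.13), 1.92 ± 0.13 below DNFB (-1.97 without DNFB replicate 2). It did not pass without vehicle replicate 1 or BAC replicate 3, and without either of these arrays, with centred arrays or without the intensity trend 5 heat shock genes rose. Of 30 tested genes of the unfolded protein and integrated stress response, 11 rose (7 without the intensity trend) and 1 fell. Chac1, which degrades glutathione and is induced through ATF4, rose from 156 ± 21.9 to 826 ± 225 (2.27 ± 0.23) and was 0.96 ± 0.23 higher than after DNFB, while Ddit3, the factor CHOP, rose by 1.28 ± 0.20 and was 0.84 ± 0.20 lower than after DNFB. Neither difference from DNFB passed without DNFB replicate 2 (0.77 ± 0.24 for Chac1 and -0.83 ± 0.23 for Ddit3), nor did that of Chac1 without DNFB replicate 3 or BAC replicate 2 or 3, or that of Ddit3 without DNFB replicate 1 or BAC replicate 1.

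**Figure D4:**
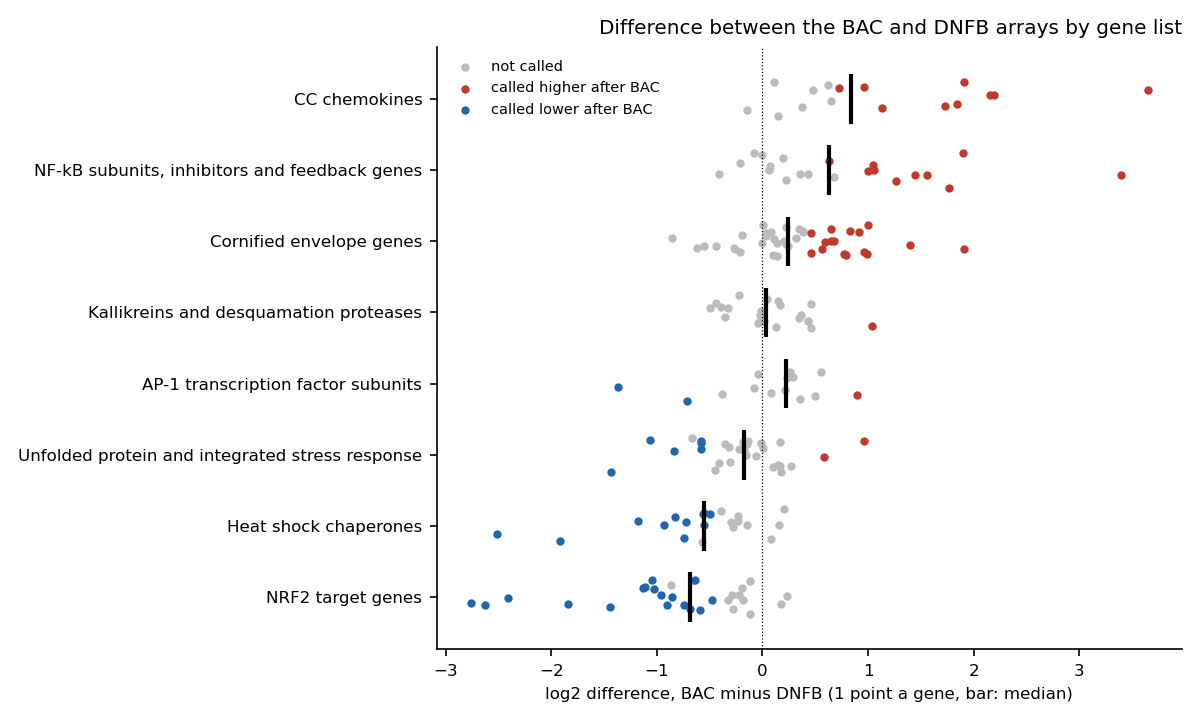
Each point is 1 gene of a list, placed by its log2 difference between the BAC and DNFB arrays, with genes called higher after BAC in red, genes called lower in blue and the list median as a bar. CC chemokines, NF-kB genes and cornified envelope genes have 9, 10 and 16 called members (9, 8 and 10 without DNFB replicate 2), all higher after BAC, while NRF2 targets and chaperones have 17 and 11, all lower.

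Metabolic genes moved in smaller groups. Of 29 tested glycolysis and hypoxia genes, 8 rose and 1 fell, with Adm, adrenomedullin, from 177 ± 11.9 to 884 ± 214 (2.20 ± 0.22), the oxygen-regulated factor Hif1a (1.32 ± 0.13) and hexokinase Hk2 (1.11 ± 0.14). Of 15 tested polyamine and arginine genes, 8 rose and none fell, including Azin1, the antizyme inhibitor (1.26 ± 0.13). The metallothioneins divided: Mt1 and Mt2, which bind zinc, rose by 1.15 ± 0.14 and 1.08 ± 0.12, and Mt4, the form of differentiated squamous epithelium, fell from 5209 ± 157 to 3082 ± 331 (-0.76 ± 0.10). The zinc importer Slc39a14 rose by 1.57 ± 0.16 and the exporter Slc30a1 fell by 0.87 ± 0.19. Among 18 clock genes, Nfil3 and Bhlhe40 rose by 2.34 ± 0.18 and 2.32 ± 0.15, and Hlf, which binds the same promoter elements as NFIL3, fell by 0.97 ± 0.20. Of 27 tested ribosome biogenesis genes, 7 rose and 1 fell.

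The genes that fell furthest included regulators, secreted epithelial proteins and genes of little-known function. Dlx6, a homeobox factor, was at 339, 308 and 304 after vehicle and at 22.2, 117 and 55.7 after BAC (log2 change -2.22 ± 0.33, limma adjusted p = 0.000314). In 2 of 3 BAC arrays it lay under the 40th percentile, so the size of its fall is uncertain. It was also 1.32 ± 0.33 below DNFB, which did not pass without DNFB replicate 2 (-1.20 ± 0.38), DNFB replicate 3, BAC replicate 1 or BAC replicate 3. Defb6, a beta-defensin, was at 5384, 6723 and 4718 and then at 2400, 2245 and 1342, a 2.85-fold fall, and it was 1.13 ± 0.19 below DNFB (-1.23 ± 0.21 without DNFB replicate 2). Of 21 tested antimicrobial and acute phase genes, 12 rose, Saa3 (2.04 ± 0.24) and Lcn2 (1.98 ± 0.23) among them, and Defb6 was 1 of 3 that fell. Sema4b, a semaphorin, fell 3.07-fold (409 ± 28.2 to 123 ± 7.88), Fut2, which adds fucose to cell surface glycans, by 1.51 ± 0.24 on the log2 scale, and Exph5, a vesicle protein whose loss causes skin fragility, by 1.44 ± 0.17.

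Of 41 tested cornified envelope genes, 20 fell and none rose, with a median of -0.49, beside 7.64% of all tested genes that fell. In bulk samples such as these, fewer cells of a type and less RNA per cell cannot be told apart. Flg, filaggrin, which bundles keratin and is later broken down to moisturising amino acids, was at 1174, 1236 and 1852 after vehicle and at 395, 855 and 679 after BAC, a 2.24-fold fall, and Cdsn, corneodesmosin, fell 2.4-fold, from 5033 ± 2019 to 2050 ± 659. Hrnr, hornerin, fell by 0.83 ± 0.11 and Csta1, a cystatin, by 0.88 ± 0.13. Ivl, involucrin, fell by 0.65 ± 0.16, which did not pass without BAC replicate 3 (0.61). Lor, loricrin, the most abundant envelope protein, was at 19246, 21979 and 18501 and then at 17462, 18659 and 19493, overlapping groups (-0.10 ± 0.10, limma adjusted p = 0.574). The count of genes that fell was 13 without BAC replicate 1 or BAC replicate 3, and 9 without the intensity trend.

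The late cornified envelope genes lie side by side and are alike in sequence, so signals may be shared between copies. Among them Lce3f (241, 779 and 363 after vehicle and 86.5, 160 and 96.0 after BAC) fell by 1.76 ± 0.35 and Lce1l by 0.81 ± 0.16. Sprr2h, a small proline-rich protein, fell by 1.32 ± 0.35 with vehicle replicate 2 and by 0.79 without it, where it did not pass, nor did it without BAC replicate 1 or 3. Against DNFB, 16 of the 41 envelope genes were higher after BAC and none lower, with 10 without DNFB replicate 2 and 9 without BAC replicate 2. Among them was Lce1l, by 0.99 ± 0.16 (0.85 without DNFB replicate 2), with mean signals of 468 after BAC and 229 after DNFB.

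Of 22 tested kallikreins and desquamation proteases with their inhibitors, 10 fell and none rose, with a median of -0.52. Both the proteases and their inhibitors were among those that fell. Klk5, which starts the cascade, was at 2571, 3442 and 2850 after vehicle and at 1630, 1844 and 1736 after BAC (-0.75 ± 0.12), Klk7 fell by 0.68 ± 0.10 and Klk10 by 1.37 ± 0.21. Spink5, the inhibitor LEKTI that restrains KLK5 and KLK7, fell from 4134 ± 646 to 2426 ± 525 (-0.78 ± 0.16), and Cst6, an inhibitor of cathepsins, by 0.96 ± 0.14. Against DNFB, 1 of the 22 was higher and none lower, also without DNFB replicate 2, and the differences were 0.02 ± 0.12 for Klk5 and -0.02 ± 0.10 for Klk7 (-0.07 and -0.05 without it).

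**Figure D5:**
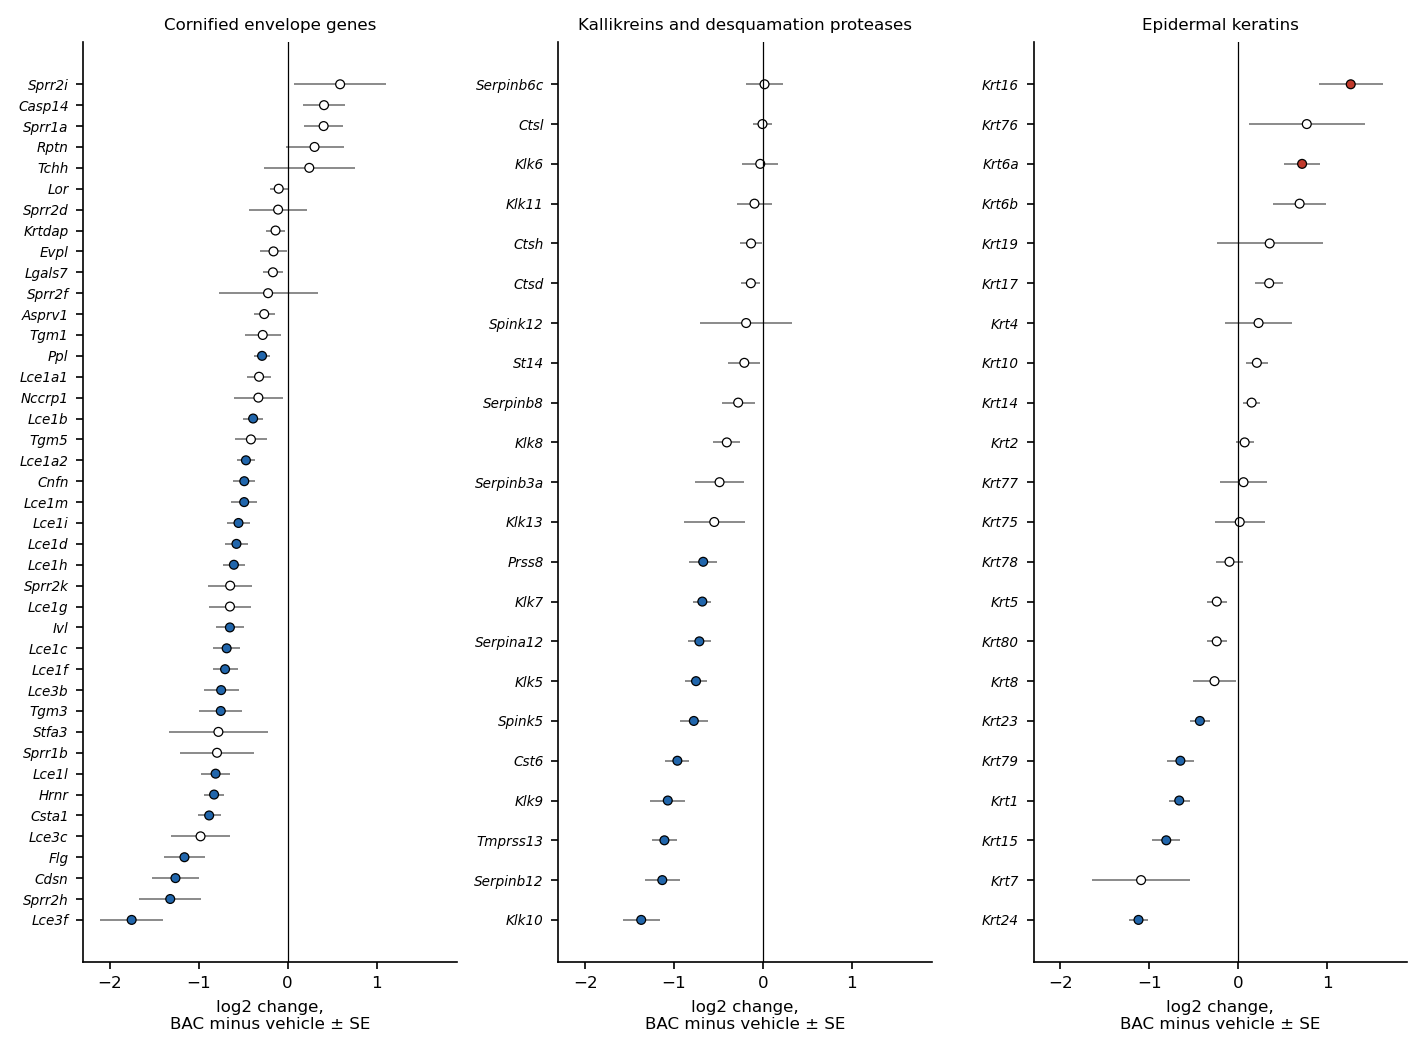
Log2 change, BAC minus vehicle, with its SE for every tested member of 3 epidermal lists; red points rose, blue points fell and white points did not pass the limma threshold. In the cornified envelope and protease lists every coloured point is blue (20 and 10 genes), while the keratins hold 2 red and 5 blue points.

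Keratins differed by type. Krt24 was at 5695, 5475 and 5430 after vehicle and at 2744, 2489 and 2387 after BAC, a 2.17-fold fall. Krt15, a keratin of basal and bulge cells, fell by 0.81 ± 0.16, Krt79 by 0.65 ± 0.15 and Krt1, of the suprabasal layers, by 0.66 ± 0.12, whereas its partner Krt10 (0.21 ± 0.13, limma adjusted p = 0.303) and the basal keratins Krt5 (-0.24 ± 0.11, adjusted p = 0.175 by limma) and Krt14 (0.15 ± 0.10, adjusted p = 0.343 by limma) did not pass. Krt6a and Krt16, keratins of activated epidermis, rose by 0.72 ± 0.20 and 1.27 ± 0.36. Krt16 had overlapping groups, with 617, 1765 and 534 after vehicle and 1450, 3306 and 1756 after BAC, and did not pass without vehicle replicate 1 or 3 or BAC replicate 2 or 3; Krt6a did not pass without any 1 of the vehicle arrays, BAC replicate 1 or BAC replicate 2. In all, 2 of 22 tested keratins rose and 5 fell, and without vehicle replicate 1 or 3 or BAC replicate 2 none rose. Probe sets for Krt6a may also detect the near-identical Krt6b. The summed signal of hair keratins and their associated proteins spread widely within both groups, at 2143, 4905 and 5775 after vehicle and 1836, 6053 and 1548 after BAC, and 0 of 29 passed the limma test, with 1 at an unadjusted p below 0.05 and 3 that fell without BAC replicate 2.

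Junction genes fell in 8 of 23 tested cases (5 without the intensity trend) and rose in 1. Dsc1, desmocollin 1 of the upper epidermis, was at 3722, 4572 and 4683 after vehicle and at 1513, 2434 and 2146 after BAC, a 2.15-fold fall, and Dsg2, desmoglein 2, fell by 1.01 ± 0.14. Dst, dystonin of hemidesmosomes, fell by 1.09 ± 0.20, and in another probe set by 1.34, while its remaining probe sets gave changes of 0.37 and 0.07, which did not pass. The exception was Gja1, the gap junction protein connexin 43, which rose from 1608 ± 219 to 4551 ± 263 (limma adjusted p = 5.23e-07).

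Transcription factors of epidermal differentiation fell in 7 of 27 tested cases and rose in 3. Gata3 was at 977, 762 and 1070 after vehicle and at 346, 425 and 256 after BAC, a 2.68-fold fall, Pou3f1 fell by 1.07 ± 0.23 and Prdm1, BLIMP1, by 0.83 ± 0.14. Cebpb, a C/EBP factor that also serves inflammation, rose by 1.12 ± 0.12, and Cebpd, of the same family but another list, by 1.97 ± 0.12. The number that fell was 3 without BAC replicate 3 and 4 without the intensity trend. Of 30 tested ceramide and barrier lipid genes, 9 fell and 1 rose, with Sdr9c7, which acts on lipids bound to the envelope, at -0.71 ± 0.13 and Elovl1, an elongase of very long chains, at -0.52 ± 0.12. That count of 9 was 5 without vehicle replicate 2 or 3, 4 without BAC replicate 3 and 3 without the intensity trend.

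Few genes of cell division passed. Of 34 tested replication and mitosis genes, 2 fell and none rose, with a median of -0.23, beside 7.64% and 6.59% of all tested genes. In 12 of the 34 the BAC arrays lay lower without overlap and in 1 higher, beside 19.2% and 14.9% of all tested genes. Mcm7, a subunit of the replicative helicase, was at 700, 800 and 768 after vehicle and at 411, 409 and 404 after BAC (-0.86 ± 0.12), as far below the DNFB arrays (-0.86 ± 0.12, and -0.85 ± 0.13 without DNFB replicate 2). Its fall against vehicle passed in all 16 alternatives, but its other tested probe sets, at -0.38, -1.06 and -0.33, did not pass singly. Ccnd2, cyclin D2, fell by 0.52 ± 0.15 and did not pass without vehicle replicate 1 or 3 or BAC replicate 3. The number that fell was 1 without vehicle replicate 1 or 3, 4 without BAC replicate 1 and 5 with centred arrays.

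Markers of other cell types moved with these groups, and their part in the results was not tested. Of 17 tested neutrophil markers, 14 rose and none fell, with a median of 2.21, though Clec4e, Itgam, Cd177 and Elane lay under the 40th percentile in 3 of 3 vehicle arrays, so this too is a description. Their summed signal was 4529 to 9796 in the vehicle arrays and 27732 to 37376 in the BAC arrays. Csf3r, the receptor for granulocyte colony-stimulating factor, was at 94.8, 88.1 and 70.7 after vehicle and 785, 779 and 993 after BAC (3.11 ± 0.21). S100a8 and S100a9, the subunits of calprotectin, which activated keratinocytes also make, were high in vehicle replicate 2 (2565 and 2633) beside 487 and 464, and 451 and 352, in the other vehicle arrays. Myeloid genes named above, such as Il1b, Osm, Clec7a, Trem1, Mmp8 and Hdc, rose in the same arrays.

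The summed signal of 17 monocyte and macrophage markers was 14904 to 17479 after vehicle and 21598 to 21669 after BAC. Of these 6 rose and none fell, Cd14, the lipopolysaccharide co-receptor, by 1.58 ± 0.17 and Ccr2, the receptor of CCL2 and CCL7, by 1.14 ± 0.23. Cd207, langerin of Langerhans cells, was at 489, 435 and 319 after vehicle and at 1093, 839 and 683 after BAC (1.04 ± 0.21), and Cd83, of mature dendritic cells, rose by 1.82 ± 0.16. In that list 5 of 16 rose and 1 fell, and 3 rose without any 1 vehicle array or BAC replicate 2. The gene that fell was Epcam (-0.48, limma adjusted p = 0.0258), a call lost in 5 of 16 alternatives. Its other probe set was at 0.20 and did not pass. The summed signal of these 16 genes was 23620 to 26243 after vehicle and 26545 to 34208 after BAC. Of 13 tested T and NK cell markers 1 rose, Gzmb, granzyme B, from 31.1 ± 13.6 to 353 ± 65.6 (2.99 ± 0.25). Its mean after vehicle lay under the 40th percentile of every vehicle array (46.2 to 57.5). The size of its rise is therefore uncertain, with log2 changes of 2.13 to 3.52 over the alternatives. Cd3e, the T cell receptor subunit, was at 127, 47.4 and 140 after vehicle and at 117, 34.2 and 47.3 after BAC. The summed signal of that list, 1470 to 2094 and 1899 to 2114, overlapped between the groups.

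Of the tissue's own cells, the summed signal of 13 keratinocyte markers was 100962 to 113621 after vehicle and 97983 to 98404 after BAC, lower in every BAC array, and 4 of them fell (2 without vehicle replicate 1, BAC replicate 2 or BAC replicate 3). The sums of 15 fibroblast markers were 95553 to 109584 and 109466 to 128358, and those of 10 melanocyte markers 3673 to 4672 and 3369 to 4417, so the groups overlapped. The sums of 27 skeletal muscle markers were 58922 to 77456 and 67589 to 101130, also overlapping, with a median log2 change of 0.31. Among them Actn2 passed (0.57 ± 0.14), and without BAC replicate 1 the number that rose was 9 and without vehicle replicate 3 it was 5. Over all tested genes, 14.9% were higher and 19.2% were lower after BAC with no overlap between the groups. Other sums were higher after BAC, also with no overlap, and their part in the results was not tested. For 12 tested smooth muscle and pericyte markers they were 6820 to 7958 after vehicle and 8600.5 to 9161 after BAC, and 4 of the 12 rose (2 without vehicle replicate 2 or 3 or BAC replicate 2 or 3). For 10 tested Schwann cell and nerve markers they were 11097 to 13341 and 13867 to 14965. Of the 10, 2 rose (1 without any 1 array), Pmp22 (0.31) and Egr2 (0.94), which is also an immediate early gene. For 11 tested mast cell markers the sums were 5221 to 5692 and 6929 to 7629, with a median log2 change of 0.20. Of the 11, 2 rose (1 without vehicle replicate 1 or 2 or BAC replicate 2). They were Tpsab1 (0.74) and Hdc (2.69), which also marks neutrophils and is part of that sum. None of 6 tested B cell markers and 3 red blood cell genes passed, and all 6 eosinophil and basophil markers on the array lay under the filter on dim signals.

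For some genes the probe sets disagreed. Different probe sets were called in opposite directions for 14 genes. Of these Ier5, an immediate early gene, rose by 1.01 ± 0.14 in its brightest probe set and changed by -2.27 in another, and the average of its probe sets was -0.39, which did not pass. Malat1, a nuclear long noncoding RNA, fell by 1.69 ± 0.35 in its brightest probe set, while others rose by 0.66 and 0.53, so no single direction can be given for it. Ptx3 (3.85 ± 0.22), a secreted pentraxin among the largest rises, had a second probe set at -0.18, which did not pass. Sizes differed too: another probe set gave 0.58 for Jun beside 2.52, 0.85 for Cebpd beside 1.97, and 2.50 for Mt1 beside 1.15. For Gadd45b, at 1.81, other probe sets gave 2.15 and 0.08, and the latter did not pass. When the probe sets of each gene were averaged, Il1r1 (0.49), Slc39a14 (0.73), Ddit3 (0.75), Cdh5 (0.48), Hpgd (-0.55), Pycard (-0.51), Cdkn1b (-0.71), Erbb3 (-0.23) and Lifr (-0.58) did not pass, nor did Krt16. Without the intensity trend the log2 changes were the same, but Ccl20, Cd44, Hspa1a, Srxn1, Krt6a, Krt16, Krt79, Cdsn, Ivl, Sprr2h, Elovl1, Cdkn1b, Lifr, Ccnd2, Actn2 and Malat1 did not pass.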

How the data were processed

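Each deposited file column holds linear intensity values, the MAS5 signals of 1 array, which the authors produced using Affymetrix Expression Console and MAS5, per the submitters' processing notes, with no settings stated. RNA was extracted with TRIzol and an RNeasy Plus kit and labelled with a 3' IVT kit, per the labels' protocols. Groups came from the sample titles. Of 45101 probe sets, 64 controls were left out, 34945 had 1 gene symbol in the platform annotation, 932 several and 9160 none listed. A gene was represented by its brightest probe set on the log2 scale (18193 genes), and 14122 genes above the 40th percentile in at least 3 of 9 arrays were tested. A gene dim after vehicle could thus be tested through the arrays of another treatment, so counts and medians of the lists are a description. All 9 arrays entered a limma 3.58.1 model in R 4.3.3 on log2(signal + 16), with a mean per treatment and eBayes with an intensity trend, tested in both directions, with Benjamini-Hochberg adjustment over all tested genes. BAC was compared with vehicle and, directly, with DNFB. An exact permutation test of 3 against 3 arrays has a smallest p of 0.1 and was not used. The method was tested on simulated data. The number of arrays limits the precision.

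The genes and 71 lists were chosen with earlier results of these data known. Of 1366 listed genes on the array, 1265 were tested and 101 lay under the filter. Named genes were the 15 largest rises and 15 largest falls without overlap and with a group mean above the median gene, up to 4 called members of each list by size of change (if none was called, the 1 with the lowest p), genes of the lists with opposite calls between probe sets, and a given set (Il6, Il1a, Il1b, Tnf, Cxcl1, Cxcl2, Ccl2, Ccl20, Ptgs2, Hmox1, Nqo1, Cd207, Krt6a, Krt1, Krt10, Krt5, Krt14, Flg, Lor, Ivl, Hbegf, Areg and Ereg). The other 52 genes followed in the alternatives, and Cd3e, were added after their values were seen. Alternatives were other pseudocounts, filters, scalings, probe set rules, samples in the fit and arrays left out. Deviations of same-numbered BAC and vehicle arrays from their group means had correlations of r = 0.153, 0.0547 and -0.0854. With 3 arrays in a group these cannot show whether arrays of the same number came from the same animal, and the main fit did not pair them. Promoter windows are from RefSeq GRCm38.p6.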

Additional observations from a re-analysis of the deposited data

Results flagged for a closer look

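Probe sets that the annotation used here does not list with a gene took no part in the comparisons above. Of 4251 such probe sets, 175 (4.12%) were called by limma between BAC and vehicle at an adjusted p below 0.05, 93 higher and 82 lower. They were fitted and adjusted apart, with the same model. The share of the 14122 tested genes was 14.2%, but each gene was represented by its brightest probe set, so these shares are not directly comparable.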

How the results depend on the processing

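For BAC against vehicle, 2009 genes were called. Leaving out 1 array at a time gave 1225 to 1745 calls, 653 to 858 higher and 572 to 934 lower, the fewest without vehicle replicate 1, and 710 and 676 were lower without BAC replicates 2 and 3. Centring on the median gave 606 higher, and omitting the intensity trend 649 lower. For BAC against DNFB, 961 genes were called, and 513 to 892 with 1 array left out (303 to 470 higher and 178 to 422 lower), with 513 without BAC replicate 2, 571 without DNFB replicate 3 and 608 without DNFB replicate 2. Centring gave 318 higher, averaged probe sets 273 lower, and no intensity trend 402 calls, 265 higher and 137 lower. The causes were not tested. A replicate block gave 1939 calls for BAC against vehicle, 900 higher and 1039 lower. Of 278 named genes that passed, 191 did so in every one of the 16 alternatives that tested them. Among these, Lif, Cxcl5 and Rtp4 were tested in 15 alternatives and Tnfrsf10b in 14. Of the rest, 86 were lost in at least 1 and 1 turned sign, Ier5 (-0.39 with the mean of its probe sets). Of 142 list counts, 74 stayed within 1.5 times in every alternative, by a rule that also takes a count of 0 staying at 0 as unchanged. Many of the list counts were 0, so the 74 do not measure how stable the calls are. Signs also turned for genes that had not passed: Ereg (-0.072 by quantile normalization, -0.086 centred, -0.15 to 0.14 with 1 array left out), Hmox1 (-0.17 to 0.11 with 1 array left out), Krt10 (-0.016 by quantile normalization), Lor (0.026 with averaged probe sets), the melanocyte gene Pmel (-0.51 to 0.084 with 1 array left out) and Ptgs2 (-0.033 to 0.48 with 1 array left out).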
